A study of Mus musculus with 4 samples.

Results

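Complex I (NADH:ubiquinone oxidoreductase) was described through the protein-coding genes whose deposited symbol starts with Nduf. This rule found 45 genes among the 53715 in the tables, of which 38 carry the name of a subunit and 7 that of an assembly factor (Ndufaf). They were measured by RNA sequencing in sorted CD4+CD8+ double-positive thymocytes, the main precursor stage of T cells in the thymus, taken from C57BL/6 mice aged 6 to 8 weeks. The wild-type (WT) and knockout (KO) groups held 2 libraries each. The KO genotype was LCKCre/+ Srsf1fl/fl, in which a Cre recombinase named for the T lineage kinase gene Lck acts on floxed alleles of Srsf1, a splicing regulator of the SR protein family. The comparison addresses how the loss of Srsf1 in developing T cells alters their transcripts. The labels do not say whether the replicates came from separate animals or pools, so the p-values below measure only the spread between these samples, which may be technical.

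Complex I is the entry point of the respiratory chain for electrons from NADH. Its matrix arm holds the flavin and the iron-sulphur clusters that carry electrons to ubiquinone, and its membrane arm pumps protons. The core is conserved from bacteria, and accessory subunits surround it. Part of the membrane arm is encoded by the mitochondrial genome and the rest by nuclear genes, and dedicated factors assist assembly. Thymocytes at this stage are mostly resting cells between a burst of division and selection on the T cell receptor.

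Total counts ranged from 35862730 to 37033180 per library. Levels of a gene across libraries are given as CPM, its count scaled to a common library total, and a single count equals 0.0267 to 0.0280 CPM. Srsf1 itself had 135 and 123 CPM in the WT libraries and 49.2 and 49.0 CPM in the KO libraries, so it fell in KO, with a fitted log2 change of -1.385 (SE 0.095, edgeR adjusted p = 2.91e-06). Gene counts do not resolve which exons were deleted. All 11 markers of double-positive cells were detected. Their summed level was 10542 and 10012 CPM in WT against 13673 and 13515 CPM in KO, with 6 of the 11 called higher. Ncr1 of natural killer cells and Foxn1 and Krt5 of thymic epithelium had 0 in every library, and Xcr1 of dendritic cells had counts in 1 library only. The summed level of 5 B cell markers was 10.1 to 12.3 CPM in WT and 18.6 to 21.2 CPM in KO. Most of it was Cd79b, which was called higher, while Ms4a1 had a fitted log2 change below 0 (-1.735, not called). For 5 natural killer cell markers the sum was 17.2 to 18.9 CPM in WT and 23.8 to 25.9 CPM in KO. Gzma made up most of it (15.4 and 11.6 against 20.3 and 21.9 CPM) and was not called. Prf1 had a fitted log2 change below 0 (-0.391, not called). The sums of the 5 markers each of macrophages (4.21 to 9.97 CPM), dendritic cells (0.428 to 2.93 CPM), and erythroid cells (0.535 to 5.26 CPM), and of the 6 of thymic epithelium (9.96 to 13.5 CPM), overlapped between the groups. That of 5 markers of stroma and endothelium, nearly all Pecam1, was 124.5 and 136.6 CPM in WT and 118.8 and 120.9 CPM in KO, and Cdh5 of endothelium had 0 counts in 3 libraries and 4 in the other. Whether these shifts play a part in the complex I values was not tested, and in bulk samples more cells of a type and more RNA per cell cannot be told apart.

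Sequence around the start sites is shown for the genes that the results turn on and for short motifs that several of them share. RefSeq promoter windows on GRCm38.p6 (250 bases before to 50 bases after the start, on the strand of the gene) matched 39 of the 45 genes. Both strands were searched for 3 motifs, namely GCGCA and GCGC with any base between them for the regulator NRF1, CCGGAAGT for ETS factors and AAGATGGCG for YY1. The NRF1 letters were also searched in a stricter form, with T as the base between. The 250 bases upstream of Ndufv2 and of Ndufs7, the members called in the comparison of genotypes, held none of the motifs and are 68% and 54.4% G and C. The stretch is printed for Ndufv2, the call that held in every alternative computed. That of Ndufs7 is not printed because it lies inside the gene as GENCODE draws it.
Ndufv2 (chr17:66101560-66101809, minus strand): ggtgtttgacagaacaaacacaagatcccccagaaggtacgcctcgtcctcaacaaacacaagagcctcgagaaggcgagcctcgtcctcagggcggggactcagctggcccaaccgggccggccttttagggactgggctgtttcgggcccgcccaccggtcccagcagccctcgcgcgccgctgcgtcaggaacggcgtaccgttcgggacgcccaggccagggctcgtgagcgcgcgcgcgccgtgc

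The NRF1 letters with any base between were found in 8 of 35 subunit windows (22.9%, 7 genes) and in 2 of 6 Ndufaf windows (33.3%), against 4.6% of all 32851 windows. The stricter form was found in 1 of 35 subunit windows (2.86%) and in 2 of 6 Ndufaf windows (33.3%), against 0.971% of all windows. The share of subunit windows thus depended on the form searched. NRF1 is a transcription factor known for its sites in respiratory chain promoters. In capitals, the match on either strand is shown for Ndufa8 and Ndufs5, the uncalled members with the smallest adjusted p, and for both Ndufaf genes that hold one.
Ndufa8 (chr2:36049349-36049378, minus strand): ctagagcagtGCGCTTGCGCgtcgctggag
Ndufs5 (chr4:123718265-123718294, minus strand): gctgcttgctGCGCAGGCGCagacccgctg
Ndufaf4 (chr4:24897960-24897989, plus strand): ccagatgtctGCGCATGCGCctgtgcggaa
Ndufaf5 (chr2:140170652-140170681, plus strand): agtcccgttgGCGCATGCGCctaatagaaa

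The YY1 letters were found in 5 of 35 subunit windows (14.3%), against 1.4% of all windows, and in 0 of 6 Ndufaf windows. In all 5 genes the match lay 23 to 36 bases downstream of the start on the strand of the gene, and the ATG inside it is the annotated start codon. The matches are in capitals, and the stretch for Ndufs4 and Ndufs6 ends with the window.
Ndufs7 (chr10:80249463-80249491, plus strand): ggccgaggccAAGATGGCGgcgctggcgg
Ndufa9 (chr6:126849097-126849125, minus strand): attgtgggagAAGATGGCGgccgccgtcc
Ndufc1 (chr3:51408915-51408943, minus strand): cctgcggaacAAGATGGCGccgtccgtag
Ndufs4 (chr13:114388045-114388069, minus strand): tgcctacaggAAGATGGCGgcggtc
Ndufs6 (chr13:73328433-73328459, minus strand): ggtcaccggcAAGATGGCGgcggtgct
The ETS letters were found in 1 subunit window, that of Ndufs3, and in 3.89% of all windows. A match of letters describes the sequence and says nothing of binding.

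Levels between genes were compared as the authors' RPKM, which divides counts by gene length and library total. Ndufb11, an X-linked membrane arm subunit, had the highest level per length, with 94.0 and 87.95 RPKM in WT and 107.8 and 106.5 RPKM in KO. Ndufa2, an accessory subunit of the matrix arm, had 60.9 and 59.4 RPKM in WT and 64.4 and 73.3 RPKM in KO. At the other end, Ndufb2 had 0.941 and 1.37 RPKM in WT and 1.44 and 0.918 RPKM in KO, and Ndufab1, the mitochondrial acyl carrier protein, 2.38 and 2.49 against 3.33 and 2.76 RPKM. The lengths deposited for Ndufb2 and Ndufab1 are 5628 and 6883 bases, the union of all annotated exons in both cases, where the median over the subunits is 1495 bases, so their low values per length depend on that choice of length. Subunits spanned 1.169 to 99.06 RPKM with a median of 25.6 (means over 4 libraries). The Ndufaf genes lay lower, from 1.30 to 8.655 RPKM with a median of 4.29, and the lowest of them was Ndufaf2 with 0.908 and 1.18 RPKM in WT and 1.36 and 1.76 RPKM in KO. Ndufa4l2, a paralogue of Ndufa4, had 1 count in 1 library and was not tested.

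**Figure D1:**
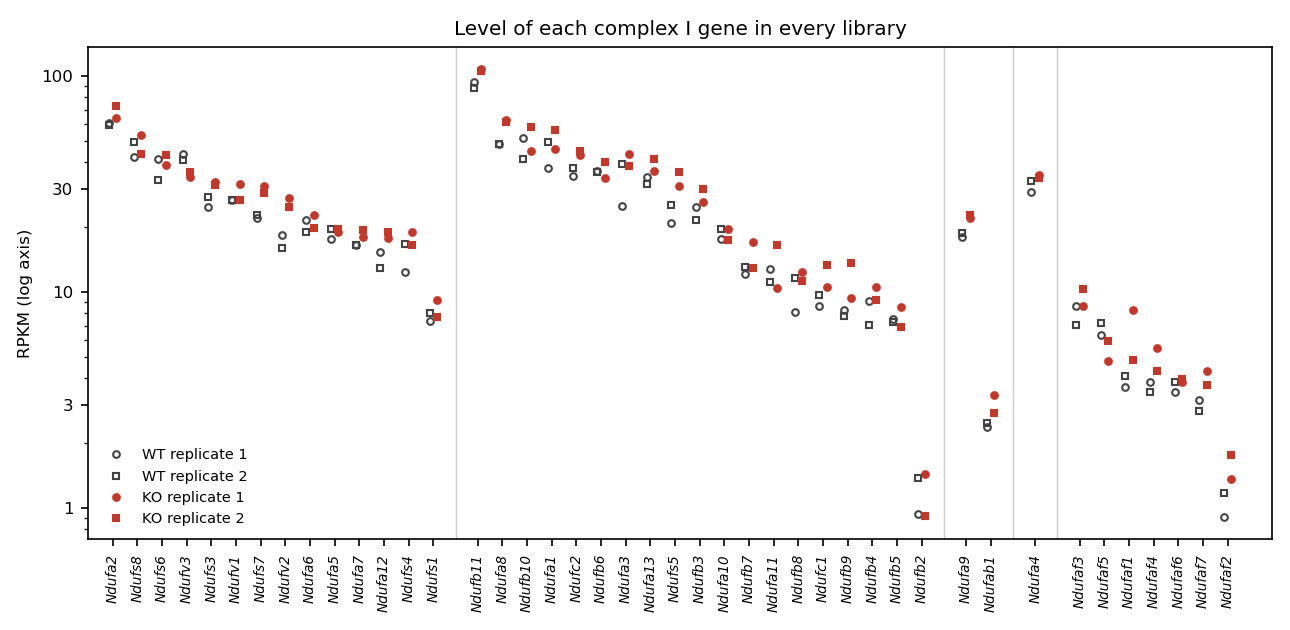
RPKM (log axis) of 43 of the 44 tested complex I genes in each of the 4 libraries, with open grey marks for WT and filled red marks for KO, ordered by level within the matrix arm, the membrane arm, the junction, Ndufa4 and the assembly factors. Subunit means run from 1.169 to 99.06 RPKM and assembly factor means from 1.30 to 8.655 RPKM.

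The nuclear subunits lay slightly higher in KO than in WT as a group, and few passed the test singly. Of 37 subunits tested, 2 rose, 0 fell and 35 were not called by the edgeR quasi-likelihood test at a Benjamini-Hochberg adjusted p under 0.05, whereas 6.63% of all 16588 genes tested were called higher, 7.89% lower and 14.5% either way. The share of subunits called in this edgeR fit, 5.41%, is thus no higher than its background of 14.5%. The median log2 fold change of KO against WT was 0.24 over the subunits (range -0.27 to 0.60) and 0.00 over all genes tested. The fitted change was above 0 in 35 of 37 subunits (94.6%) against 50.2% of all genes tested. Both KO libraries lay above both WT libraries in 20 subunits (54.1%) against 27.6% of all genes tested, and below both in 1 (2.7%) against 28.2%. The remaining 16 overlapped. Ahead of adjustment, 7 subunits were higher and 1 lower at a p under 0.05, a level that 27.4% of all genes tested passed. DESeq2 and limma-voom each called 4 of the 37 higher and 0 lower, where DESeq2 called 7.64% of all genes higher and 8.96% lower (16.6% in all) and limma-voom 7.45% and 8.6% (16% in all). Ndufb9 was the single subunit whose 95% interval reached above 1 log2 unit (-0.04 to 1.11), so that a doubling lay outside the intervals of the others.

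The subunits were compared library by library as well. KO replicate 1 was above WT replicate 1 in 32 of 37 subunits, with a median difference of 0.24 in log2 of CPM plus 0.5. It was above WT replicate 2 in 31 (0.19). KO replicate 2 was above WT replicate 1 in 32 subunits (0.23) and above WT replicate 2 in 26 (0.22). Within groups, WT replicate 2 was above WT replicate 1 in 19 subunits and KO replicate 2 above KO replicate 1 in 18, with median differences of 0.00 in both. Summed over the 37 subunits, the level was 1465 and 1471 CPM in the WT libraries and 1666 and 1662 CPM in the KO libraries, so the groups did not overlap.

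**Figure D2:**
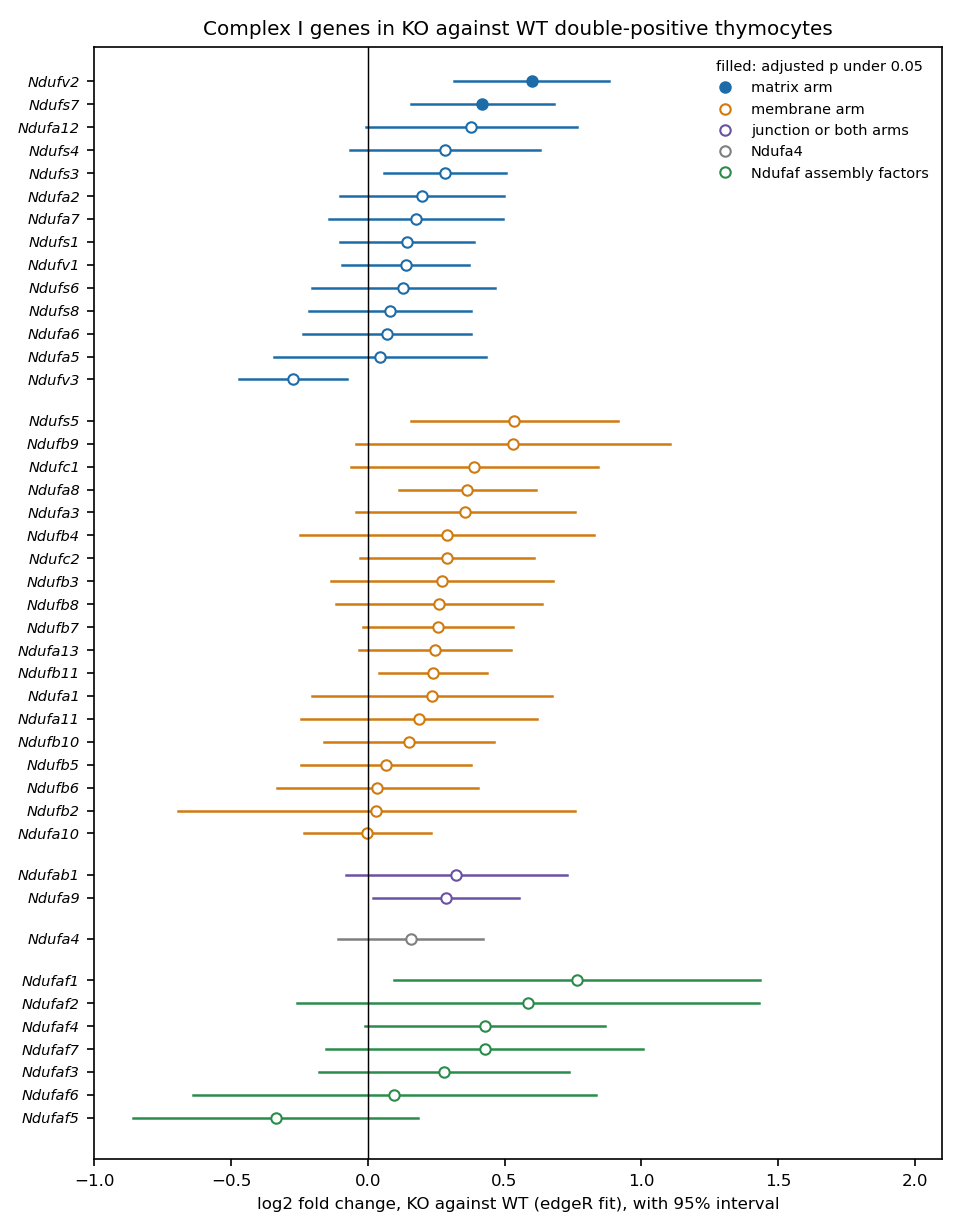
Fitted log2 fold change of KO against WT (x axis) with its 95% interval for 43 of the 44 tested complex I genes, grouped and coloured by role, with filled points for genes called at an adjusted p under 0.05. Ndufv2 and Ndufs7 are the filled points, and most open points lie between 0 and 0.5 with intervals that include 0.

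The catalytic core of the matrix arm comprises 7 nuclear subunits, and the 2 subunits that edgeR called higher belong to it. Over all genes tested, 6.63% were called higher and 14.5% either way. DESeq2 and limma-voom each called 2 matrix arm and 2 membrane arm subunits higher. Whether calls are more frequent in the core was not tested. Ndufv2 (ENSMUSG00000024099.14, chromosome 17, 66078638 to 66101559, minus strand, GRCm38) carries an iron-sulphur cluster next to the flavin subunit. It had 36.8 and 31.9 CPM in WT and 53.6 and 50.01 CPM in KO. Both KO libraries were above both WT libraries, and the level rose 1.515-fold (log2 fold change 0.60, SE 0.13, 95% interval 0.315 to 0.88, edgeR adjusted p = 0.00904). Ndufs7 (ENSMUSG00000020153.14, chromosome 10, 80249121 to 80256794, plus strand) holds the cluster that hands electrons to ubiquinone. It had 37.9 and 39.1 CPM in WT and 52.7 and 49.7 CPM in KO, again without overlap, and rose 1.34-fold (log2 fold change 0.42, SE 0.12, 95% interval 0.16 to 0.68, edgeR adjusted p = 0.0359). No other annotated exon overlaps Ndufv2 or Ndufs7. The Ndufv2 call held in all 18 alternatives computed. Ndufs7 missed the threshold when WT replicate 1 (log2 fold change 0.400, edgeR adjusted p = 0.135), WT replicate 2 (0.446, adjusted p = 0.0748) or KO replicate 1 (0.380, adjusted p = 0.119) was removed, and kept it when KO replicate 2 was (0.469, adjusted p = 0.0303). It also missed after a correction for gene length (0.378, adjusted p = 0.0528, and 0.378, adjusted p = 0.0563, with the replicate block as well).

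The other 5 core subunits were not called. Ndufs3, next to the ubiquinone site, had 54.3 and 60.0 CPM in WT and 69.7 and 68.7 CPM in KO, a fitted log2 change of 0.28 (SE 0.10, edgeR adjusted p = 0.0909), without overlap between groups. Ndufs3 shares 88 exonic bases with Kbtbd4 on the other strand. Ndufs1, which holds several clusters, had 59.4 and 64.7 against 74.1 and 62.4 CPM (0.14, SE 0.11), and its groups overlapped. On the other strand, Ndufs1 shares 489 exonic bases with Ino80dos and 9 with Eef1b2. Leaving out KO replicate 1 gave a change of 0.020 for Ndufs1, and leaving out KO replicate 2 gave 0.271. Ndufv1, the subunit that binds NADH and the flavin, had 67.4 CPM in both WT libraries against 79.6 and 68.1 CPM (0.14, SE 0.11). The KO values of Ndufv1 were thus above WT by a margin that was small in KO replicate 2. The same omissions gave 0.025 and 0.255 for Ndufv1. Ndufs8, a ferredoxin-like subunit, had 41.0 and 47.8 against 50.9 and 42.5 CPM (0.08, SE 0.14) and overlapped. The median over the 7 core subunits was 0.14 log2 units.

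Among the 8 accessory subunits of the matrix arm, 0 were called by edgeR, DESeq2 or limma-voom, which called 14.5%, 16.6% and 16% of all genes. Ndufv3 alone had a fitted change below 0. Ndufv3 (ENSMUSG00000024038.16, chromosome 17, 31520115 to 31531331, plus strand), an accessory subunit on the NADH-binding tip known to exist in a long and a short isoform, had 109.4 and 101.8 CPM in WT and 83.9 and 90.1 CPM in KO. Both KO libraries were below both WT libraries (log2 fold change -0.27, SE 0.09, 95% interval -0.47 to -0.08), but the adjusted p of 0.0640 by edgeR missed the threshold. It passed in 6 of 18 alternatives, among them no filter on low counts (0.0442), the gene length correction (0.0483) and the fit without KO replicate 2 (0.0383). Gene counts do not resolve its isoforms. Ndufa12, Ndufs4, Ndufa2, Ndufa7, Ndufs6, Ndufa6 and Ndufa5 had log2 fold changes from 0.38 down to 0.04. Ndufv3 was also the single accessory matrix arm subunit at an unadjusted p under 0.05, a level that 27.4% of all genes tested passed.

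None of the 19 nuclear membrane arm subunits was called by edgeR, and 3 passed an unadjusted p of 0.05 (all higher). DESeq2 and limma-voom each called 2 (Ndufa8 and Ndufs5). Over all genes tested, edgeR called 14.5%, DESeq2 16.6% and limma-voom 16%, and 27.4% passed that unadjusted p. The median log2 fold change of the 19 was 0.26, against 0.14 over the 15 of the matrix arm. Whether the arms differ was not tested. Ndufa8, which faces the intermembrane space, had 41.95 and 41.65 CPM in WT and 53.6 and 53.5 CPM in KO, a fitted log2 change of 0.36 (SE 0.115, 95% interval 0.115 to 0.61, adjusted p = 0.0525). The replicates of Ndufa8 lay close together and the groups did not overlap. It passed the threshold in 9 of 18 alternatives, among them DESeq2 (0.0429) and limma-voom (0.0433). Ndufs5, another subunit on the intermembrane side, had 18.15 and 21.7 against 26.4 and 31.2 CPM (0.535, SE 0.175, adjusted p = 0.0603). Its groups did not overlap either, and it passed in 8 of 18 alternatives, DESeq2 (0.0406) and limma-voom (0.0420) included. Ndufb11 had 85.6 and 79.9 against 96.9 and 97.4 CPM (0.24, SE 0.09, adjusted p = 0.104), also without overlap, and shares 117 exonic bases with Rbm10 on the other strand. The other 16 ran from -0.00 (Ndufa10) to 0.53 (Ndufb9). Ndufb2 had 5.31 and 7.72 against 8.05 and 5.20 CPM (0.03, SE 0.33), and its sign turned without WT replicate 1 (-0.21) or KO replicate 1 (-0.31).

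**Figure D3:**
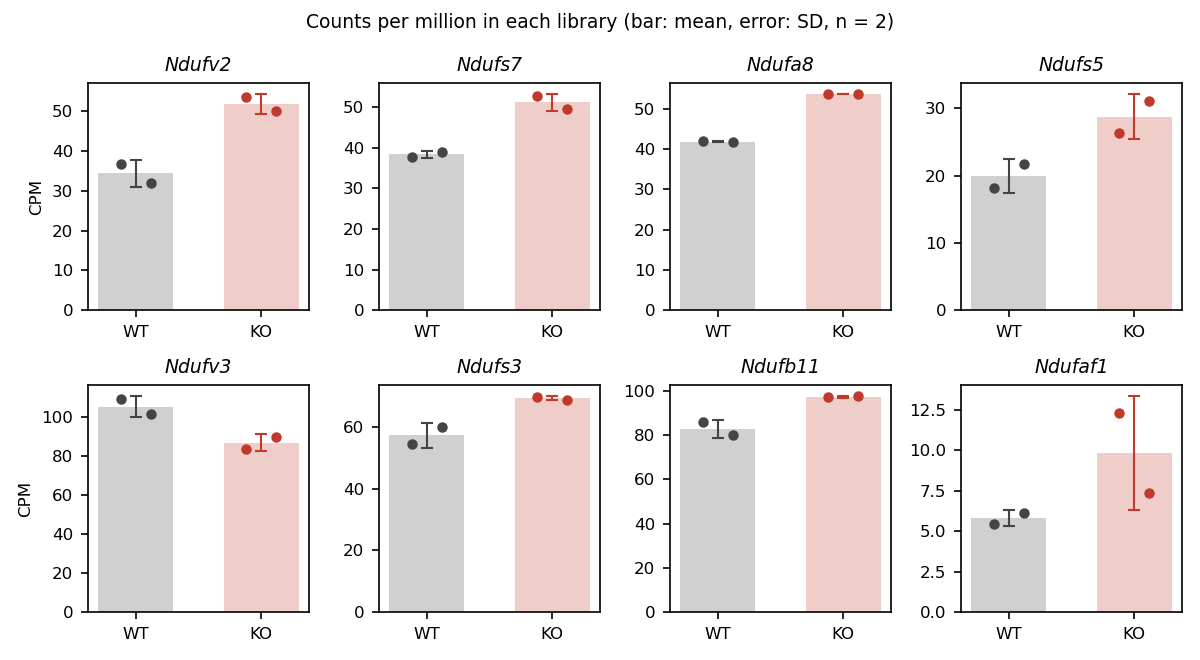
CPM of Ndufv2 and Ndufs7, which were called, of the 5 uncalled subunits with the smallest adjusted p, and of Ndufaf1, with a point for each library, a bar for the mean and the SD as error (n = 2). KO points lie above WT points in all panels except Ndufv3, and the KO points of Ndufaf1 lie furthest apart for their level (12.3 and 7.36 CPM).

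Ndufa9, at the junction of the arms, had a log2 fold change of 0.285 (SE 0.12, edgeR adjusted p = 0.152) and Ndufab1 of 0.32 (SE 0.19, adjusted p = 0.297). Ndufab1 had 16.45 and 17.1 CPM in WT and 22.7 and 19.15 CPM in KO, without overlap between groups. It shares 269 exonic bases with Gm44986 on the other strand. Ndufa4 keeps its complex I name although it is now placed in cytochrome c oxidase. Its level was 40.5 and 45.2 CPM in WT and 48.0 and 47.05 CPM in KO (0.16, SE 0.12), with both KO libraries above WT.

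Of the 7 Ndufaf assembly factors, 0 were called by edgeR in either direction, 1 passed an unadjusted p of 0.05, and 0 were called by DESeq2 or limma-voom. The shares of all genes tested were 14.5% by edgeR, 27.4% at that unadjusted p, 16.6% by DESeq2 and 16% by limma-voom. The median log2 fold change of the 7 was 0.43 (range -0.34 to 0.76). This was above the 0.24 of the subunits, but with a median SE of 0.27 against 0.14. The Ndufaf genes had 97 to 798 counts per library and the subunits 188 to 5497. A difference between factors and subunits was not tested. Summed over the 7, the level was 62.0 and 60.1 CPM in WT and 76.2 and 72.8 CPM in KO. Ndufaf1, a member of the complex that builds part of the membrane arm, had 5.48 and 6.16 CPM in WT and 12.3 and 7.36 CPM in KO (0.76, SE 0.31, adjusted p = 0.127). KO replicate 1 sets much of that value: leaving it out gave a change of 0.35, and leaving out KO replicate 2 gave 1.10, a call (edgeR adjusted p = 0.0234). Ndufaf2, which acts late on the matrix arm, had 2.71 and 3.505 against 4.01 and 5.29 CPM (0.585, SE 0.39), without overlap, but 1955 of its exonic bases are shared with B230220B15Rik on the other strand.

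Ndufaf3 and Ndufaf4 act together on the ubiquinone-binding part. Ndufaf4 had 15.1 and 13.5 CPM in WT and 21.3 and 17.02 CPM in KO, a fitted log2 change of 0.43 (SE 0.20, edgeR adjusted p = 0.192), without overlap. Ndufaf3 had 15.7 and 12.8 against 15.5 and 18.9 CPM (0.28, SE 0.21) and overlapped. Ndufaf7, a protein methyltransferase, had 7.36 and 6.46 against 9.865 and 8.63 CPM (0.43, SE 0.27), without overlap. Ndufaf6 had 4.25 and 4.76 against 4.68 and 4.93 CPM (0.10, SE 0.34) and overlapped. Ndufaf5, which hydroxylates Ndufs7, had 11.4 and 12.9 CPM in WT and 8.53 and 10.65 CPM in KO (-0.34, SE 0.24, adjusted p = 0.419). It was the single assembly factor of this name with both KO libraries below WT, as Ndufv3 was among the subunits. Leaving out a library in turn gave changes from 0.382 to 0.786 for Ndufaf2, 0.135 to 0.437 for Ndufaf3, 0.262 to 0.592 for Ndufaf4, -0.497 to -0.180 for Ndufaf5 and 0.022 to 0.186 for Ndufaf6, with none of these called. The end nearest 0 came without KO replicate 2 for Ndufaf2 and Ndufaf3, KO replicate 1 for Ndufaf4 and Ndufaf5, and WT replicate 1 for Ndufaf6.

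Assembly factors with other names were taken from a list of 12 tested genes. Of these, 2 rose, 1 fell and 9 were not called, with a median log2 fold change of 0.39, beside 6.63% of all genes called higher and 7.89% lower. DESeq2 and limma-voom each called 3 higher and 1 lower, beside 16.6% and 16% of all genes in either direction. Tmem70, needed for ATP synthase and complex I assembly, had 11.75 and 12.95 CPM in WT and 29.1 and 19.95 CPM in KO. It rose (log2 fold change 0.995, SE 0.215, edgeR adjusted p = 0.00865), but not once KO replicate 1 was left out (0.70, adjusted p = 0.0779), and limma on log2 RPKM plus 0.5 did not call it (0.0628). Tmem261, also called Dmac1 and acting on the distal membrane arm, had 15.5 and 15.8 against 28.4 and 22.8 CPM. It rose (0.715, SE 0.18, edgeR adjusted p = 0.0216), again not once KO replicate 1 was left out (0.55, adjusted p = 0.144). Atp5sl, also called Dmac2 and acting on the same part, had 60.5 and 56.5 against 37.7 and 34.8 CPM and fell (-0.68, SE 0.12, adjusted p = 0.00249). Tmem126b, a partner of Ndufaf1, had 3.08 and 4.44 against 8.475 and 6.92 CPM (1.04, SE 0.335, adjusted p = 0.0571). Ecsit, Acad9 and Timmdc1, which act in the same complex, were not called (0.46, -0.26 and -0.08).

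Complex I subunits encoded by the mitochondrial genome mostly had fitted changes slightly below 0. Of the 7, 0 were called by edgeR or limma-voom, as were 0 of the 6 with an adjusted p from DESeq2. These tools called 14.5%, 16% and 16.6% of all genes tested. An unadjusted p of 0.05 was passed by 1 (mt-Nd2, lower), beside 27.4% of all genes tested. The fitted change was below 0 in 6, and the median was -0.07. Summed, the 7 had 3342 and 3593 CPM in WT and 3498 and 3055 CPM in KO, and the groups overlapped. The most lowered of the abundant ones, mt-Nd2, had 658 and 684 CPM in WT against 613 and 573 CPM in KO, a fitted log2 change of -0.17 (SE 0.07, edgeR adjusted p = 0.119). mt-Nd1 had 900 and 946 against 993 and 837 CPM (-0.01, SE 0.08). mt-Nd3 and mt-Nd4l had only 24 to 145 counts per library, so their values (0.31 and -0.49) carry wide errors (SE 0.39 and 0.88). A difference between the 2 genomes was not tested.

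Among regulators of respiratory gene expression, 1 of 10 tested was called higher and 1 lower, where 6.63% and 7.89% of all genes were. Polrmt, the RNA polymerase of mitochondria, had 50.2 and 41.2 CPM in WT and 72.05 and 62.4 CPM in KO and rose (log2 fold change 0.56, SE 0.13, edgeR adjusted p = 0.0107), a call that limma on log2 RPKM plus 0.5 did not make (0.0868). Tfb2m, an initiation factor of the same polymerase, had 58.1 and 66.3 against 42.0 and 41.5 CPM and fell (-0.57, SE 0.12, adjusted p = 0.00617). Tfam, which packages mitochondrial DNA and starts its transcription, was not called (-0.20, SE 0.11). Neither were Nrf1 (0.10), Yy1 (0.17), Gabpa (-0.03) and Esrra (0.315). Ppargc1a, a coactivator of mitochondrial biogenesis, had 10 counts in each WT library and 0 in each KO library, which allows up to 3 counts for counting error, and was too low to be tested.

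Nuclear genes of complexes II to V had a median log2 fold change of 0.235 (44 tested, quartiles 0.153 and 0.315, 8 called higher and 0 lower), and mitochondrial ribosomal protein genes 0.23 (76 tested, quartiles -0.03 and 0.40, 5 called higher and 1 lower). The quartiles of the complex I subunits were 0.13 and 0.29. The fitted change was above 0 in 97.73% of complex II to V genes and 71.05% of mitochondrial ribosomal protein genes, beside 94.59% of the subunits. Both KO libraries lay above both WT libraries in 79.55% and 50% of these 2 lists, beside 54.05% of the subunits and 27.63% of all genes tested. The share called was 5.41% of complex I subunits, 18.2% of complex II to V genes and 7.9% of mitochondrial ribosomal protein genes. Over all genes tested it was 14.5%, with 6.63% higher and 7.89% lower. The median SE was 0.14 in complex I against 0.10 in complexes II to V, and whether the lists differ was not tested. Across the 37 subunits the fold change had a Pearson correlation of -0.21 with log2 gene length and -0.29 with log2 mean CPM, given as a description over genes that share libraries.

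**Figure D4:**
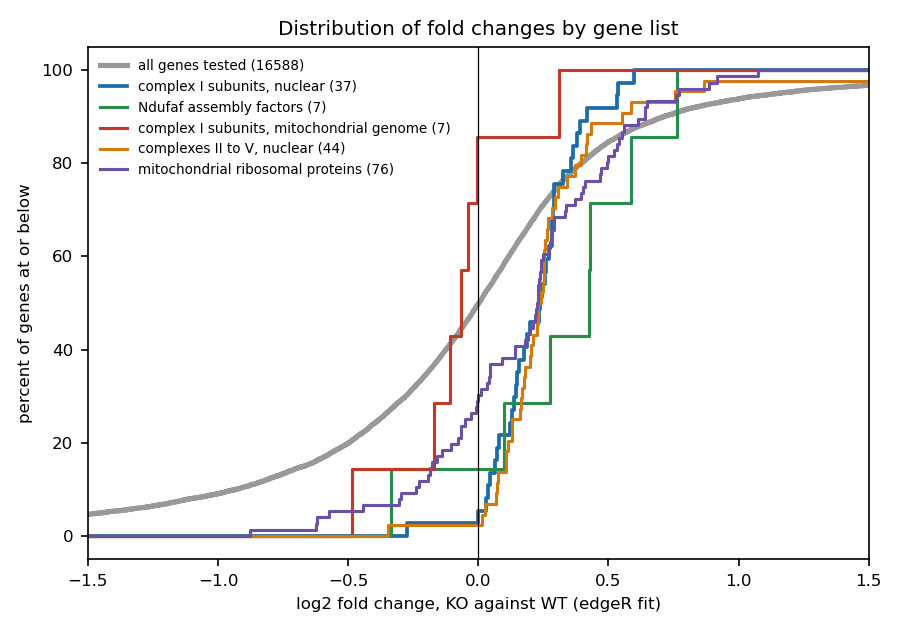
Cumulative percent of genes (y axis) at or below each log2 fold change of KO against WT (x axis) for all 16588 genes tested and for 5 gene lists, with the number of genes in brackets. The curve of the nuclear complex I subunits crosses 50% at 0.24 and runs beside that of complexes II to V, while the curve of the mitochondrially encoded subunits crosses at -0.07.

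Shared sequence limits some of these values. Exons of 19 of the 45 genes overlap another annotated gene, 17 of them on the other strand. Besides those given above, these include Ndufb2 (145 bases with Gm42420 on the same strand, 156 with Gm16272 and 146 with Braf on the other). Ndufa9 (67 bases), Ndufa2 (66) and Ndufaf3 (48) are also among them. The strand setting of the counting is not given in the sources used here. Matches of member transcripts to other genes were sought over at least 100 bases at 95% identity or more. For 11 members the longest match was to an annotated processed pseudogene. They include Ndufs5 (319 bases at 99.4%), Ndufs3 (792 bases at 98.6%), Ndufb4 (390 bases at 100%), Ndufa12 (402 bases at 99.5%) and Ndufab1 (469 bases at 99.4%). For Ndufaf2, Ndufaf7, Ndufv3 and Ndufs1 it was to another kind of transcript, over 282, 165, 140 and 102 bases. How reads shared with such copies were counted is not given in the sources used here. Ndufv2, Ndufs7 and Ndufa8 had neither an exon overlap nor a match of either kind.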

How the data were processed

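RNA sequencing libraries of sorted thymocytes (2 WT, 2 KO, grouped by title) were analysed from the read counts per gene that the authors deposited. Per the submitters' processing notes, the build was GRCm38 and the tools included HTSeq 0.6.1, STAR 2.6.0a, DESeq2 1.24.0, cutadapt 1.17 and FastQC 0.11.5. Strand setting and annotation release: not given in the sources used here. The authors also deposited RPKM, equal to count over gene length and library total for all 53715 genes (relative tolerance 1e-06). Coordinates are from GENCODE M21 (GRCm38).

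Counts of all genes were tested with edgeR 4.0.16 (quasi-likelihood, robust, TMM factors of 0.993 to 1.01, filterByExpr, R 4.3.3). Genotype was the sole term. P-values were two-sided and Benjamini-Hochberg adjusted over 16588 genes. CPM uses the TMM-scaled totals, and SEs come from the fold change and its F statistic. Alternatives were DESeq2 1.42.0, limma 3.58.1 (voom, and log2 RPKM plus 0.5 or 0.1), other scaling factors and filters, a gene length correction, a replicate block, and leaving out each library. Copies were sought with BLAST+ 2.17.0. Replicate libraries differed by more than counting noise (chi-square per degree of freedom 16.7 and 19). The members, lists and rule for named genes were chosen with earlier results of these data known. Values are given for called members, the catalytic core, Ndufaf genes, the 3 highest and 3 lowest levels, the 5 uncalled members of smallest adjusted p and called genes of the related lists. A member that this rule names is not reported here by name and stays in the counts and medians. Genes outside that rule, such as Tmem126b, mt-Nd2 and Ppargc1a, were picked after their values were seen, as were the motifs.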

Additional observations from a re-analysis of the deposited data

How the results depend on the processing

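The median log2 fold change of the subunits stayed above 0 in all 18 alternatives. It was 0.196 with the gene length correction, 0.194 with the replicate block and that correction together, and 0.212 to 0.247 when each library was left out. In the counts that follow, each share of all genes called takes higher and lower together. Such a share is therefore not the background for subunits called higher alone. Called higher alone were 6.63% of all genes tested by edgeR, 7.64% by DESeq2 and 7.45% by limma-voom. Subunits called higher, 2 by edgeR, numbered 4 with no filter, with a minimum mean of 1 CPM, with DESeq2 and with limma-voom, 1 with the gene length correction with or without the block, and 1 to 3 when each library was left out (1 without WT replicate 1). The share of all genes called moved as well, from 14.5% to 11.8% with no filter, 22.5% with that minimum, 16.6% with DESeq2, 16% with limma-voom, 14.5% and 16.9% with the length correction without and with the block, and 11% to 14.9% when each library was left out. Subunits called lower numbered 1 with no filter, with that minimum and with the gene length correction with or without the block, and 0 to 1 when each library was left out. Ndufaf genes called higher numbered 0 to 1 when each library was left out and 0 in the other alternatives. When each library was left out, Ndufb2 ran from -0.314 to 0.329 and Ndufs8 from -0.051 to 0.213, with a change of sign. The replicate block alone gave 3 subunits higher, 0 lower and a median of 0.239, with 16.9% of all genes called. Deviations of same-numbered libraries correlated at -0.124 over 9638 genes, and crossing the pairs, an alternative chosen after seeing the data, gave 5 higher and 1 lower, with 19.6% of all genes called. The Ndufaf genes had 97 to 798 counts per library, and their median SE was 0.267 against 0.143 for the subunits.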
